A study of Mus musculus with 11 samples.

Results

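The data described here are the array values of 4 mouse miRNAs, mmu-miR-192, mmu-miR-194, mmu-miR-215 and mmu-miR-122a, in mammary glands and mammary tumors. They were found as the plus-strand mouse spots whose annotation holds one of the 4 names, and all 4 names were found among the 334 mouse miRNAs of the array, each as 1 probe printed in 4 spots. Total RNA was hybridized to 11 two-color arrays in 4 groups. Normal mammary glands of female mice in late pregnancy came from the strains FVB (2 arrays), Balbc (3 arrays) and FVB129B6 (3 arrays), with no transgene or treatment named in the labels. The C3TAg group (3 arrays) holds primary mammary tumors of FVB mice that carry the SV40 T antigens under the C3(1) flanking region of a rat prostate gene, which is active in mammary ductal cells and weakly elsewhere. The labels do not say that arrays of a group come from separate mice, and the titles of 2 Balbc arrays could name 2 glands of 1 mouse, so the p-values measure the spread between these samples.

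miR-122 is the most abundant miRNA of hepatocytes and is known as a liver marker. miR-192, miR-194 and miR-215 are known from liver, intestine and kidney, and are made from 2 clusters that each hold one copy of miR-194. Transcription of these clusters is known to be raised by p53, the tumor suppressor that SV40 large T antigen binds and inactivates.

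RefSeq on GRCm38.p6 held a mature arm for 3 of the 4 names. The sequences are shown because miR-192 and miR-215 share a seed and most of their other bases, which limits what a hybridization array can tell apart. They are written 5′ to 3′ with the seed, bases 2 to 8, in capitals.
miR-192-5p: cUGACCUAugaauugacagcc
miR-215-5p: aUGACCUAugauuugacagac
miR-194-5p: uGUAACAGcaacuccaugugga
miR-192-5p lies at chr19:6264857-6264877 and miR-215-5p at chr1:185313610-185313630, both on the plus strand. miR-194-5p is encoded next to each of them, at chr19:6264658-6264679 (Mir194-2) and at chr1:185313325-185313346 (Mir194-1), so its probe reads the sum of both loci. On chromosome 19, 115 bases separate the hairpins of Mir194-2 and Mir192, and no other gene of the annotation overlaps them. On chromosome 1, 195 bases separate Mir194-1 and Mir215, and both lie within the span of Iars2, a mitochondrial isoleucyl-tRNA synthetase gene. Counted from the 5′ end, miR-192-5p and miR-215-5p differ at 3 of 21 bases, C1A, A12U and C20A. Among the 1679 mature mouse miRNAs of the table only these 2 carry the seed UGACCUA, and miR-194-5p alone carries GUAACAG. The probe of miR-192 holds the complement of 18 of its 21 bases and leaves out 3 at the 3′ end, whereas the probes of miR-215 and miR-194 hold the whole complement. As 60-base oligonucleotides, the probes of miR-192 and miR-215 were nearest to each other, at 8 edits. This count covers all 60 bases and the 3 left out of the miR-192 probe. It is therefore no measure of how alike the miRNA parts are. Over the bases that both probes hold, these parts differ only at C1A and A12U. The nearest to miR-194 was miR-146 at 8 edits, and the nearest to miR-122a was miR-206 at 9 edits.

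Green intensities, the channel that the labels assign to the sample, were first read against the array's 16 spots of random 22-base control probes. Each array was scored by the scanner program's own call: a miRNA is taken as well above background there if at least 50% of its 4 spots were called. miR-194 and miR-122a passed this call on all 8 glands, with all 32 spots called. miR-192 passed on 3 gland arrays (FVB 1, Balbc 1 and Balbc 2) and miR-215 also on 3 (Balbc 2, FVB129B6 1 and FVB129B6 3). On the tumor arrays miR-192, miR-194 and miR-215 had none of 12 spots called, and miR-122a had 3 of 12, which made 1 of 3 arrays pass. The median of the random spots was 14.4 to 21.95 on the glands and 114 to 159.5 on the tumors.

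**Figure D1:**
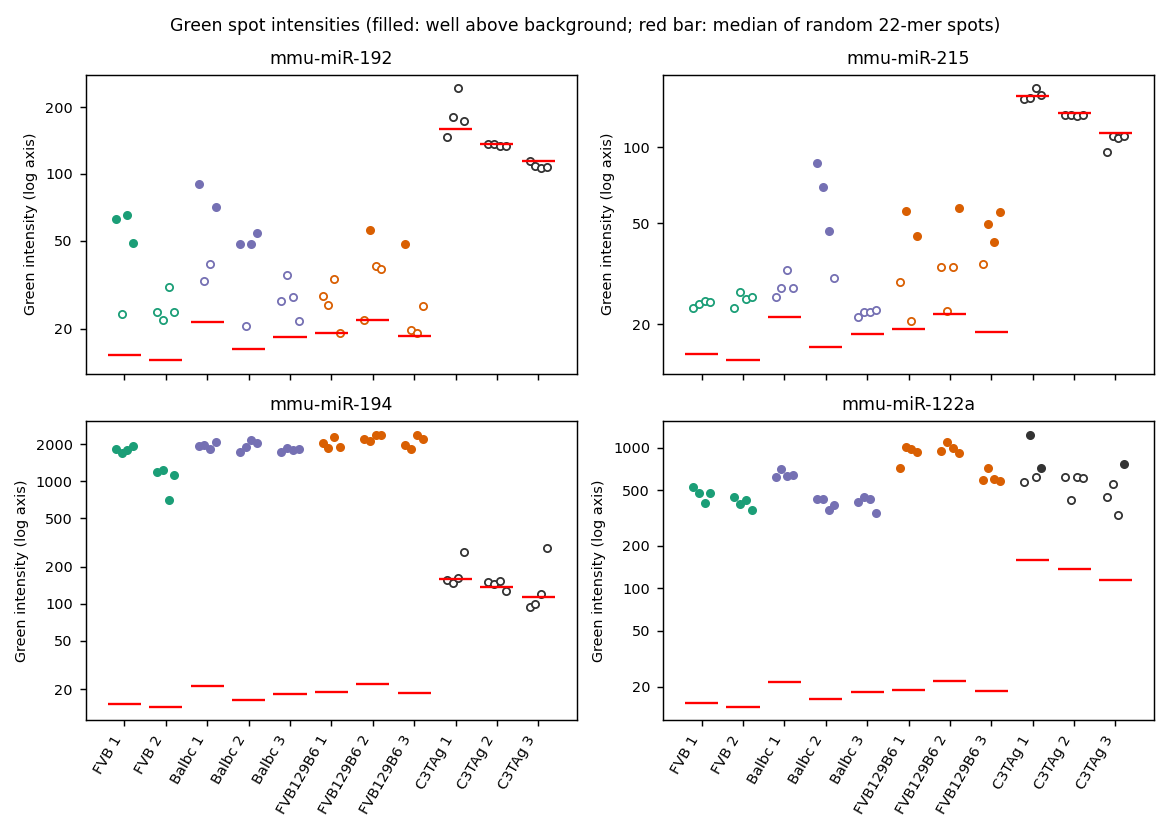
Green intensity of each spot (log axis) of the 4 miRNAs on the 11 arrays, colored by group, with filled points for spots called well above background and a red bar at the median of the random control spots of that array. miR-194 stands far above the bar on every gland array and on it in the tumors, miR-122a stands above it everywhere, and miR-192 and miR-215 lie near it.

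mmu-miR-194 was the best measured of the 3 p53-responsive members. The median intensity of its 4 spots was 1815 and 1155 on the FVB arrays, 1965, 1985 and 1825 on the Balbc arrays, and 1975, 2290 and 2095 on the FVB129B6 arrays. The lowest value, on FVB 2, includes the one spot of the 4 miRNAs that the program marked as an outlier. On the tumor arrays the medians were 159, 148 and 110.2. The tumor values stood at 0.967 to 1.08 times the random spots of their arrays and the gland values at 80.2 to 122.5 times, so the 2 tissues did not overlap.

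mmu-miR-122a gave 477 and 410 in FVB, 634, 413 and 421.5 in Balbc, and 952, 973 and 594.5 in FVB129B6. The tumors gave 667, 612.5 and 499.5, within the range of the glands. Relative to the random spots, however, the tumors stood at 4.18 to 4.47 times and the glands at 22.97 to 49.97 times, without overlap.

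The values of mmu-miR-192 were 55.8 and 23.7 in FVB, 55.2, 48.25 and 27.2 in Balbc, and 26.85, 37.8 and 22.55 in FVB129B6. The arrays of FVB differ by more than those of FVB129B6 do, and the 3 strains overlap. In the tumors it gave 177, 135 and 108.5, which is 0.952 to 1.11 times the random spots. Those of mmu-miR-215 were 24.25 and 25.35 in FVB, 27.8, 58.15 and 22.35 in Balbc, and 36.95, 33.65 and 45.85 in FVB129B6. The highest came from Balbc 2, where 3 of 4 spots were called. In the tumors miR-215 gave 159, 134 and 110, or 0.965 to 0.997 times the random spots. Neither miRNA of the shared seed was thus distinguishable from the control spots in the tumors.

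For comparisons the log2 green intensity was set relative to the median of each array over all mouse spots, so that a level of 0 is the array median. For FVB these medians were low (188.5 and 245.5), while the other 2 strains had 508 to 671.5 and the tumors 125 to 170. The number of miRNAs well above background was 209 to 262 on the glands and 15 to 64 on the tumors. The glands shared 1 slide, on which FVB had its own column, whereas tumors were on a different slide that was read by a different release of the scanner program. Slide and program thus cannot be told apart from tumor against gland, nor the slide column from FVB against the other strains. Since bulk RNA was used, fewer cells of a type and less RNA per cell cannot be told apart either.

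The first question was whether the strain of the gland mattered. limma's moderated F-test over the 8 gland arrays called 3 of the 4 miRNAs between strains, miR-194 (adjusted p = 0.00741), miR-192 (adjusted p = 0.00966) and miR-122a (adjusted p = 0.0141), and not miR-215 (adjusted p = 0.191). Of all 261 miRNAs tested, 46.0% were called. All 4 entered the test, miR-192 and miR-215 with the minimum of 3 arrays.

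miR-194 was highest in FVB, at 2.88 and 2.65 on the log2 array-median scale, against 1.75, 1.95 and 1.70 in Balbc and 1.96, 1.76 and 1.96 in FVB129B6. FVB did not overlap with either strain, and the other 2 strains did overlap with each other. The difference was -0.97 ± 0.17 (SE) for Balbc minus FVB (limma adjusted p = 0.00622) and -0.87 ± 0.17 for FVB129B6 minus FVB (limma adjusted p = 0.00598). Over all 261 miRNAs the median difference was -0.48 and -0.39, and 37.9% and 39.5% were called, so a shift of this direction was common on this scale. Relative to the random spots, miR-194 had group means of 6.62 ± 0.38 in FVB (SD, n = 2), 6.69 ± 0.21 in Balbc (n = 3) and 6.75 ± 0.06 in FVB129B6 (n = 3), and its strain differences turned to 0.06 and 0.12 with no call (limma adjusted p = 0.850 and 0.681).

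miR-122a, the hepatocyte miRNA, had levels of 0.937 and 1.103 in FVB, 0.79, 0.55 and 0.21 in FVB129B6, and 0.15, -0.33 and -0.46 in Balbc. Balbc lay below both other strains on every array. The difference from FVB was -1.23 ± 0.25 for Balbc (limma adjusted p = 0.0102). It was -0.20 with no call on the random-control scale (limma adjusted p = 0.520), and its call was lost with the 75th percentile (-0.80, limma adjusted p = 0.0700), the median of miRNAs well above background (-0.78, limma adjusted p = 0.0819) and green over red (-0.89, limma adjusted p = 0.0804). The difference was -0.50 ± 0.25 for FVB129B6, which was not called (limma adjusted p = 0.143). Balbc minus FVB129B6 was -0.73 ± 0.22 and not called (limma adjusted p = 0.121). Relative to the random spots FVB129B6 was the highest strain, at 5.37 ± 0.27 (SD, n = 3) against 4.88 ± 0.09 in FVB (n = 2) and 4.68 ± 0.23 in Balbc (n = 3), and FVB129B6 minus FVB became 0.49 (limma adjusted p = 0.117). That Balbc had the lowest mean of the 3 strains is common to the 2 scales, whereas the place of FVB is not. Relative to the random spots Balbc and FVB overlapped, with Balbc 1 at 4.92 and FVB 2 at 4.81.

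miR-192 had levels of -2.40 and -2.92 in FVB, -3.44, -3.66 and -4.35 in Balbc, and -4.32, -4.21 and -4.37 in FVB129B6. Both FVB arrays lay above every array of the other strains. limma gave -1.16 ± 0.29 for Balbc minus FVB (adjusted p = 0.0186) and -1.63 ± 0.29 for FVB129B6 minus FVB (adjusted p = 0.00457). Relative to the random spots the differences were -0.13 and -0.64 with no call (limma adjusted p = 0.782 and 0.138). The call for Balbc was also lost with the 75th percentile (-0.72, limma adjusted p = 0.129), the median of miRNAs well above background (-0.71, limma adjusted p = 0.181) and quantile normalization (-0.58, limma adjusted p = 0.0767). The call for FVB129B6 was lost with the median of miRNAs well above background (-1.11, limma adjusted p = 0.0601). No fold is given, since no FVB129B6 array had miR-192 well above background and only FVB 1 did in FVB. miR-217, well above background on no gland, was likewise higher on both FVB arrays on the array-median scale. Its levels were -3.77 ± 0.22 in FVB (SD, n = 2), -4.90 ± 0.10 in Balbc (n = 3) and -4.86 ± 0.09 in FVB129B6 (n = 3). An undetected miRNA thus had the same separation, so these calls are no measure of a strain difference in miR-192.

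miR-215 had levels of -3.35 and -2.91 in FVB, -4.36, -3.23 and -4.65 in Balbc, and -3.89, -4.27 and -3.59 in FVB129B6. The groups FVB and Balbc overlapped. The differences from FVB were -0.95 ± 0.43 in Balbc (limma adjusted p = 0.111) and -0.79 ± 0.43 in FVB129B6 (limma adjusted p = 0.174). Between Balbc and FVB129B6 limma called 0 of the 4, against 3.45% of all miRNAs tested. Without adjustment 1 of the 4, miR-122a, would pass the same threshold.

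**Figure D2:**
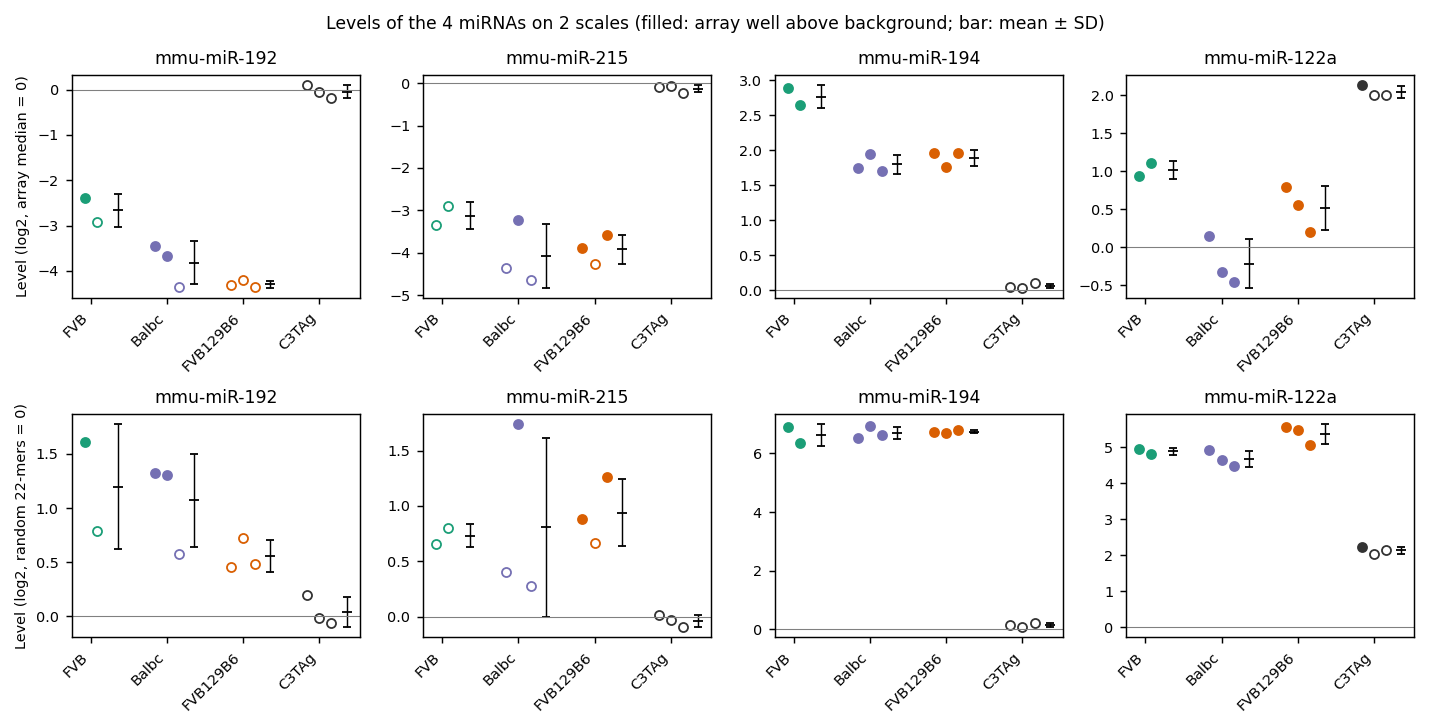
Levels of the 4 miRNAs in the 4 groups, as log2 relative to the array median (upper row) and to the random control spots (lower row), with 1 point per array, filled where the miRNA was well above background, and the mean ± SD beside each group. On the upper scale the tumors stand above the glands for miR-192, miR-215 and miR-122a and below them for miR-194, and on the lower scale they stand below the glands for all 4.

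On the array-median scale, muscle and red blood cell markers in the glands also had calls between strains. The 3 skeletal muscle miRNAs on the array, of 4 listed, were well above background on all 8 glands, and their summed level was 3.64 to 6.02 in FVB, 9.17 to 9.97 in Balbc and 8.45 to 8.62 in FVB129B6. All 3 were called higher in both Balbc and FVB129B6 than in FVB, where 37.9% and 39.5% of all 261 miRNAs were called in either direction. The 2 erythroid miRNAs were both called between strains, where 46.0% of all were called. Their summed level was 9.51 to 9.57 in FVB, 7.61 to 8.67 in Balbc and 6.77 to 7.34 in FVB129B6. Relative to the random spots it was 13.28 to 13.52, 12.54 to 13.64 and 11.55 to 12.19, so FVB and Balbc overlapped. On the array-median scale the sum of 3 lymphoid and myeloid miRNAs (of 4 listed) was 5.91 to 6.12, 5.21 to 8.37 and 5.30 to 5.64. The highest of these sums was that of Balbc 2, where miR-142-5p stood at 7.57 against 3.78 and 3.85 on the other Balbc arrays and miR-150 at 6.90 against 2.48 and 2.21. Balbc 2 is also the only Balbc array on which miR-215 passed, and without it miR-192 and miR-215 are not tested. All of these were well above background on every gland. Of 6 mammary epithelial miRNAs all were well above background on every gland, with summed levels of 8.68 to 9.78, 8.02 to 8.91 and 8.84 to 9.22. limma called 0 of the 3 lymphoid and myeloid and 0 of the 6 epithelial miRNAs between strains. At an unadjusted p under 0.05 the counts were 0 of 3 and 2 of 6. In Balbc minus FVB 1 of the 6 epithelial miRNAs was called lower, against 32.2% of all. It was miR-200c (-1.29 ± 0.41, limma adjusted p = 0.0429). With the random spots as the reference 1 of the 6 was called higher there and none lower. The part of these markers in the values of the 4 miRNAs was not tested.

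By Pearson's r over the 8 glands, which share the array-median scale and the 3 strains, the miRNAs whose levels were most like those of miR-192 were miR-22 (r = 0.968), miR-700 (r = 0.945) and miR-702 (r = 0.942), out of 257. For miR-194 they were miR-30c (r = 0.971), miR-296 (r = 0.970) and miR-23b (r = 0.968). For miR-215 they were miR-532 (r = 0.933), miR-191 (r = 0.897) and miR-500 (r = 0.890), and for miR-122a they were miR-764-5p (r = 0.939), miR-138 (r = 0.860) and miR-196a (r = 0.859). Among the 4 themselves the highest value was that of miR-192 with miR-194, which share a cluster on chromosome 19 (r = 0.852), ahead of miR-194 with miR-215, which share one on chromosome 1 (r = 0.758), and miR-194 with miR-122a, which share none (r = 0.708). miR-192 and miR-215, the pair with the shared seed and the most alike probes, had r = 0.584. These 2 passed the call on only 3 of the 8 glands each. On the array-median scale FVB stood highest for miR-192 and miR-194, and relative to the random spots miR-194 did not have FVB highest. The order of these pairs was computed on the array-median scale only and is not known for other scales. Whether a shared cluster has a part in this order was not tested.

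The second question was how the C3TAg tumors differ from the glands. limma over all 11 arrays called all 4 miRNAs between the tumors and the mean of the 3 strains, where 90.4% of the 261 miRNAs tested were called, and all 4 against FVB alone, where 88.1% were. With such a background a call is not a result about these 4. The median difference of all tested was -0.83 against the mean of the strains and -1.04 against FVB.

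miR-194 had levels of 0.06, 0.04 and 0.10 in the tumors, at the array median and below every gland. The difference was -2.09 ± 0.14 from the mean of the strains and -2.70 ± 0.19 from FVB (limma adjusted p = 1.06e-07 and 2.35e-07). As no tumor array had miR-194 well above background, this is a bound: miR-194 was at least 1.28-fold lower in the tumors than in the mean of the glands, and at least 1.96-fold lower than in FVB. With the random spots as the reference the bounds became at least 28.0-fold and 26.8-fold, while scalings on the 75th percentile or on the median of miRNAs well above background turned the fitted difference to 0.89 and 0.44. The choice of reference thus decides the size and the sign for miR-194.

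miR-122a had levels of 2.14, 2.00 and 2.00 in the tumors, above every gland. limma gave 1.61 ± 0.18 against the mean of the strains (adjusted p = 8.89e-06) and 1.03 ± 0.25 against FVB (adjusted p = 0.00258). Only 1 of 3 tumor arrays had it well above background. With the random spots as the reference the difference turned to -2.84 (limma adjusted p = 1.93e-08) and -2.75 (limma adjusted p = 4.79e-07), and after normexp background correction to 0.01 (limma adjusted p = 0.889) and -0.20 (limma adjusted p = 0.177).

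For miR-192 and miR-215 the tumor levels were 0.11, -0.05 and -0.19, and -0.08, -0.07 and -0.23, which is the level of the array median and of the random spots. The fitted differences from the mean of the strains were 3.55 ± 0.21 and 3.58 ± 0.29 (limma adjusted p = 4.19e-08 and 4.67e-07). No fold is given, since neither passed the call on a tumor array and the bound is under 1. Relative to the random spots the differences turned to -0.90 and -0.86 (limma adjusted p = 0.00310 and 0.0155).

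The summed level of the 6 mammary epithelial miRNAs was 4.19 to 4.63 in the tumors, where 1 was well above background on all 3 arrays and 2 on none. Neither erythroid miRNA passed the call in any tumor. The part of these markers, of the lower signal and of the slide in the tumor differences was not tested.

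**Figure D3:**
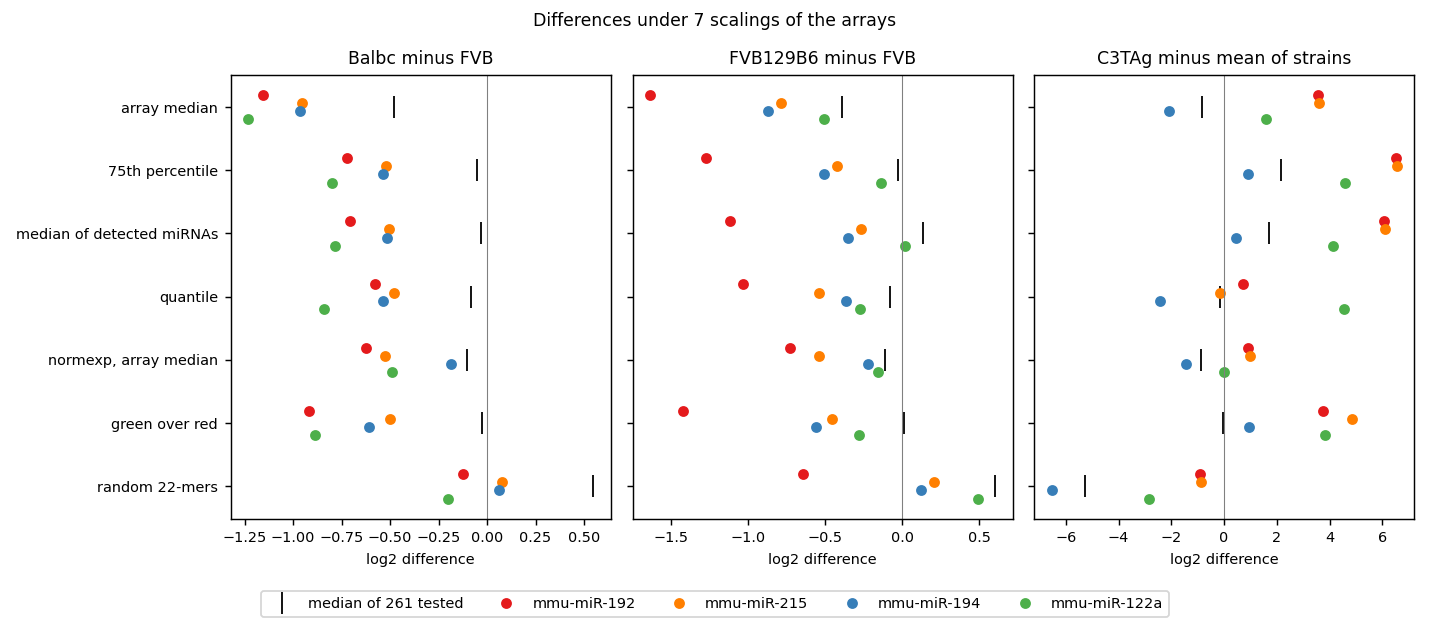
Log2 difference of the 4 miRNAs (colored points) and the median of the 261 miRNAs tested (black bar) for 3 comparisons under 7 ways of scaling the arrays. Most differences from FVB lie below 0, except with the random control spots as the reference. There those of Balbc lie between -0.20 and 0.08, and those of FVB129B6 at -0.64 for miR-192 and above 0 for the other 3. The tumor differences of all 4 miRNAs change sign between scalings. No tumor array had miR-192, miR-194 or miR-215 well above background.

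Each scaling by one number per array moves all miRNAs together, so the distance from the median of all tested is common to the array median, the 75th percentile, the miRNAs well above background and the random spots. Relative to that median, Balbc minus FVB was -0.67 for miR-192, -0.48 for miR-194, -0.47 for miR-215 and -0.75 for miR-122a. FVB129B6 minus FVB was -1.24 for miR-192, -0.48 for miR-194, -0.40 for miR-215 and -0.11 for miR-122a. In the tumors miR-122a was at 2.44 relative to the median of all, and at 4.71 with quantile normalization and 0.90 with normexp. It passed the call on only 1 of 3 tumor arrays. As only 15 to 64 miRNAs passed there, the median of all rests mostly on tumor values near background. These values are thus no measure of size. For miR-192, miR-194 and miR-215, no tumor spot was called and no such value is given.

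The other p53-responsive miRNAs were compared as a list of 9, all on the array, all tested and all well above background on every gland. It holds the miR-34 family, direct p53 targets, and miR-107, miR-143, miR-145, miR-15a, miR-16 and miR-200c. Between strains 3 of 9 were called, miR-34a (limma adjusted p = 0.0161), miR-34c (limma adjusted p = 0.0332) and miR-107 (limma adjusted p = 0.00568), against the 46.0% of all. In Balbc 4 of 9 were called lower than in FVB and none higher, where 32.2% of all were lower, and the list's median difference was -0.63. With the random spots as the reference 2 were called higher and none lower, so the direction depends on the scale. In the tumors 6 of 9 were called lower than the mean of the strains and none higher, against 52.5% of all lower, with a median of -4.72. However, miR-34b, miR-34c, miR-143 and miR-15a were well above background on no tumor array, so their differences and this median are no measure of size. The 3 not called were miR-34a (-0.60 ± 0.27), miR-34b (-0.11 ± 0.16) and miR-34c (-0.35 ± 0.17). Against FVB alone, the strain of the tumors, 8 of 9 were called lower. Of all 261 miRNAs 88.1% were called there in either direction, with a median of -1.04, so this count is not a result about the list. The 8 included miR-34a (-1.27 ± 0.36, limma adjusted p = 0.00739) and miR-34c (-0.77 ± 0.23, limma adjusted p = 0.00869), and not miR-34b (-0.42 ± 0.21). On 2 of the other 6 scalings 3 of the 9 were called higher, with 5 or 6 lower. On quantile normalization 1 was higher and 6 lower, and on the ratio of green to red 2 were higher and 4 lower. With normexp 8 were lower and with the random spots all 9, and none was higher. Each of these counts was the same in both tumor comparisons.

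Of 5 further miRNAs listed for liver, gut and pancreas, 4 were on the array by that exact name. miR-148a and miR-22, which many tissues express, were well above background on all 8 glands and on no tumor array. Their levels were 8.02 ± 0.62 and 8.18 ± 0.26 in FVB (SD, n = 2), 7.57 ± 0.59 and 7.18 ± 0.24 in Balbc (n = 3), and 8.08 ± 0.16 and 6.66 ± 0.23 in FVB129B6 (n = 3). limma called miR-22 between strains (adjusted p = 0.00626) and not miR-148a (adjusted p = 0.409). In the tumors they stood at -0.08 ± 0.10 and 0.11 ± 0.52 (n = 3). miR-148a was at least 68.3-fold and miR-22 at least 46.7-fold lower there than in the mean of the glands (limma adjusted p = 4.69e-10 and 3.87e-10). Both were called lower under all 7 scalings, with bounds from 7.72-fold and 4.61-fold with quantile normalization. miR-375, known from pancreatic islets, was well above background on 1 of 8 glands (a Balbc array) and miR-217, known from exocrine pancreas, on none, so neither was tested. miR-216 was not matched.

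The arrays also hold a red channel, and the labels name neither the RNA nor the group it carries. On the 8 glands all 4 miRNAs had all 32 spots well above background in red. The median red intensity of miR-122a was 42350 to 108000 on the glands, 97.5 to 212 times its green intensity, and 3125 to 7615 on the tumors, 5.10 to 12.03 times. For miR-194 it was 7950 to 20950 on the glands, 5.39 to 9.15 times green. For miR-215 it was 640 to 1610, 17.3 to 55.9 times, and for miR-192 264.5 to 972.5, 8.15 to 33.0 times. The median of the random spots was 14.4 to 23.55 in red on the glands, so the 2 miRNAs that lay near background in green were measured in red with the same probes. In the tumors miR-192 and miR-215 had none of 12 red spots called, miR-194 had 3 and miR-122a had 12.

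By the mean log2 ratio of red to green over the 8 glands, miR-122a came 2nd of 334 at 7.10, miR-215 11th at 5.05, miR-192 21st at 4.14 and miR-194 36th at 2.97, where the median of all was 0.28. Above and next to miR-122a were miR-124a at 7.25 and miR-9 at 6.92, both known from brain, and then miR-153, miR-499, miR-208, miR-449, miR-34c, miR-137 and miR-34b at 6.06 to 5.16, named here after their values were seen. Of these miR-499 and miR-208 are known from heart muscle and miR-137 from brain. The green intensity of miR-122a was 0.471% to 1.03% of its red intensity on the glands, and that of miR-124a 0.498% to 1.09%. Whether part of the green signal of miR-122a comes from the red channel was not tested.

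**Figure D4:**
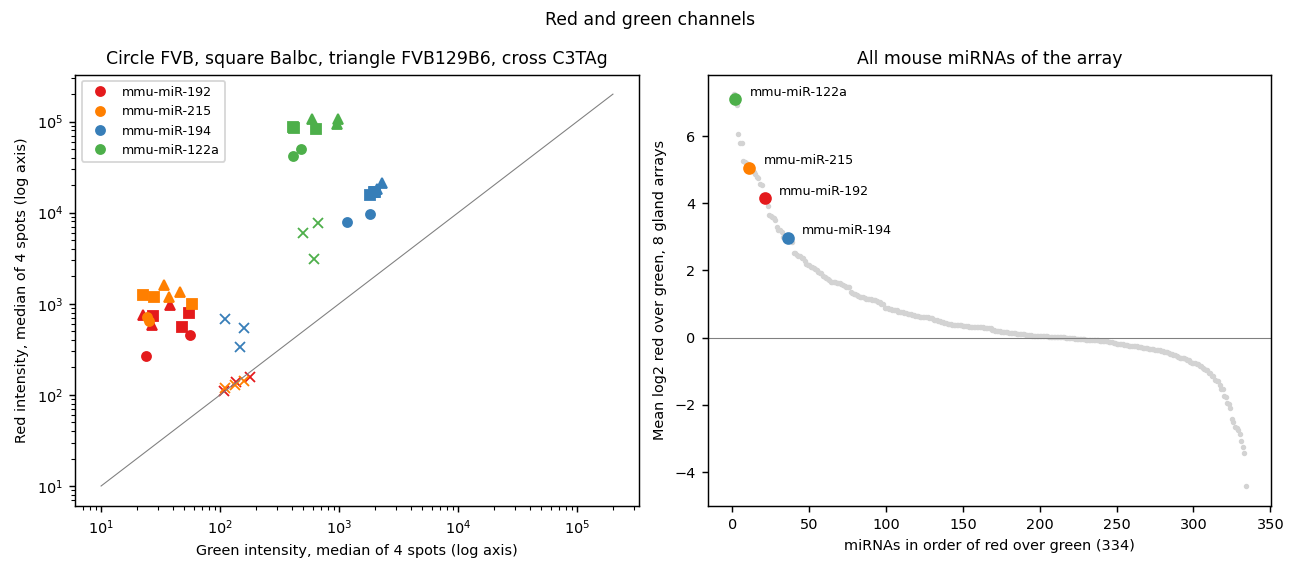
Left, median red against median green intensity of the 4 miRNAs (both log axes), with 1 point per array and a line of equal intensity. Right, mean log2 ratio of red to green over the 8 gland arrays for all 334 miRNAs in falling order, with the 4 miRNAs marked. On the glands the 4 lie above the line and among the 36 highest ratios, and in the tumors miR-192 and miR-215 lie on the line.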

How the data were processed

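Total RNA was labeled with Hy3 and/or Hy5 and hybridized to a custom 60-mer miRNA array. The authors deposited green and red spot intensities from Feature Extraction (9.5.1.1 for tumors, 10.5.1.1 for glands), background subtracted and dye normalized within each array, with calls per spot. They also deposited log2 values of the green intensities of 1336 mouse spots after global median normalization. From the scanner values, log2 green intensity minus the array median was averaged over the spots of each miRNA without outlier spots. A miRNA was tested when at least 50% of its spots were well above background on at least 3 arrays. limma, with p-values adjusted by Benjamini-Hochberg and a threshold of 0.05, was used over the 8 glands for strains and over all 11 arrays for tumors. The fits were tested on simulated levels with a common spread and every miRNA well above background. That test does not cover values near background or arrays of unequal background. Depth does not apply to arrays, and their number limits the precision. Alternatives were other scalings, the deposited table, normexp (offset 50), the ratio of green to red, filters, a floor, the replicate number as a block and arrays left out. The random-control scaling was added after the values were seen. The miRNAs named besides the 4 are the 3 with the highest correlation to each over the glands, the one with the nearest probe, and the listed p53-responsive and liver, gut and pancreas miRNAs. The members and the lists were chosen with earlier results of these data known. Sequences and coordinates come from RefSeq (GRCm38.p6), which matched 3 of 4 names. R 4.3.3, limma 3.58.1, Python 3.11.15, numpy 2.4.6, pandas 2.3.3 and matplotlib 3.10.9 were used.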

Additional observations from a re-analysis of the deposited data

Results flagged for a closer look

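The red intensities enter the comparisons between groups directly only in the alternative of green over red. The green values of the main fits were dye normalized within each array, and what red contributed to them was not tested. The red channel held a signal for all 4 miRNAs above the random control spots on every gland array. The median red intensity over the 8 gland arrays was 86000 for miR-122a, 16825 for miR-194, 1178 for miR-215 and 661 for miR-192. The RNA in this channel is not given in the sources used here, and the origin of the signal was not tested.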

How the results depend on the processing

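Leaving out 1 array at a time gave 2 to 3 of the 4 miRNAs called between strains, 2 to 3 for Balbc minus FVB, 1 to 2 for FVB129B6 minus FVB, 0 for Balbc minus FVB129B6, and 2 to 4 for each tumor comparison. The count for FVB129B6 minus FVB was 1 without Balbc 1, Balbc 2 or FVB 1, as miR-192 then had too few arrays to be tested, and both tumor counts were 2 without Balbc 2, when neither miR-192 nor miR-215 was tested. Averaging the 2 Balbc arrays with like titles gave 1 for FVB129B6 minus FVB and 2 for each tumor comparison. The count between strains fell from 3 to 1 with the 75th percentile, and to 0 with the median of miRNAs well above background or the random control spots. Balbc minus FVB fell from 3 to 0 with each of these scalings. FVB129B6 minus FVB fell from 2 to 1 with the 75th percentile, quantile normalization or the filter on every array, and to 0 with the median of miRNAs well above background or the random spots. Each tumor count fell from 4 to 2 with quantile normalization and to 0 with the filter on every array, which no member passed.

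Over all miRNAs the number called ran from 60 (green over red) to 195 (no filter) between strains, where it was 120, from 47 (75th percentile) to 178 (no filter) for Balbc minus FVB, where it was 99, from 39 (green over red) to 191 (no filter) for FVB129B6 minus FVB, where it was 103, and from 0 (normexp among others) to 17 (all 11 arrays in the fit) for Balbc minus FVB129B6, where it was 9. With the filter on every array 13 and 12 of 15 were called in the tumor comparisons.

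Differences that changed sign were, for Balbc minus FVB on the random-control scale, 0.0634 for miR-194 and 0.0761 for miR-215. For FVB129B6 minus FVB they were 0.12 for miR-194, 0.20 for miR-215 and 0.49 for miR-122a on that scale, and 0.0186 for miR-122a with the median of miRNAs well above background. For Balbc minus FVB129B6 they were 0.0635 for miR-215 with quantile normalization, 0.0323 for miR-194 and 0.00959 for miR-215 with normexp, and 0.12 for miR-215 without Balbc 3 (-0.34 to 0.12 over the arrays left out). For tumors minus the mean of the strains miR-194 came to 0.89 with the 75th percentile, 0.44 with the median of miRNAs well above background and 0.93 as green over red, miR-215 to -0.15 with quantile normalization, and miR-192, miR-215 and miR-122a to -0.90, -0.86 and -2.84 on the random-control scale. For tumors minus FVB miR-194 came to 0.54, 0.26 and 0.54 in the same 3 settings, miR-215 to -0.49 with quantile normalization, miR-122a to -0.20 with normexp, and miR-192, miR-215 and miR-122a to -1.16, -0.77 and -2.75 on the random-control scale. The random-control scale was chosen after seeing the data. Apart from the scalings, whose construction moves every miRNA of an array together, the causes were not tested. Of 312 values of the members for strains 269 kept their direction and side of the threshold, as did 149 of 168 for tumors. The F-test between strains has no direction, so only its side of the threshold was compared. These counts include the arrays left out and the deposited table, which repeats the main values. They are thus no measure of how the calls depend on the scaling.

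Replicate numbers were taken as names only. After removal of group means, the 15 pairs of same-numbered arrays from different groups correlated at -0.277 to 0.422 with a mean of 0.0440. The 30 pairs with different numbers correlated at -0.515 to 0.277 with a mean of -0.0221. With the replicate number as a block 3 members were called between strains, 3 for Balbc minus FVB, 2 for FVB129B6 minus FVB, 0 for Balbc minus FVB129B6 and 4 for each tumor comparison. Signal over background limits miR-192 and miR-215, which passed on 3 of 8 glands each. Where 1 FVB array was left out, the spread of the remaining one was taken from the other groups.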
